A study of Mus musculus with 4 samples.

Results

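The 10 neutrophil granule and S100 genes (S100a8, S100a9, Lcn2, Mmp8, Mmp9, Ngp, Retnlg, Wfdc21, Ltf and Camp) were followed in leukocytes from melanomas treated with a topical glucocorticoid (GC). They were taken by name, and all 10 were among the 32285 genes of the deposited table. The cells came from melanomas of one mouse tumor line of C57BL/6 origin with the genotype Nras+LSL-G12D and Tyr::CreERT2+/o, implanted intradermally into C57BL/6 wild-type hosts. Of 10 tumors, 5 were treated with control and 5 with clobetasol propionate, and each hashtag was taken as one tumor. Per the paper's methods, the control was cetraben cream and clobetasol propionate was an ointment, so the base differed as well. Live CD45+ cells of the 5 tumors of a group were pooled and run in one 10x Genomics channel, so treatment and channel cannot be told apart.

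Neutrophils build their granules in waves as they mature in the bone marrow. Azurophil granules come first, then specific granules with lactoferrin (Ltf), cathelicidin (Camp), neutrophilic granule protein (Ngp) and lipocalin 2 (Lcn2), and then gelatinase granules with Mmp9. Most of that transcription has ended by the time a neutrophil enters a tissue, whereas the cytosolic calcium-binding proteins S100a8 and S100a9, which pair as calprotectin, keep abundant transcripts. Lcn2 binds bacterial siderophores that carry iron, Mmp8 is a collagenase, Mmp9 a gelatinase, and Retnlg a resistin-like secreted protein. Glucocorticoids act through a nuclear receptor that binds DNA and also changes the action of other transcription factors.

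The results turn on Mmp8 and Lcn2, which changed, beside S100a8 and S100a9, which serve as the neutrophil reference. The 250 bases before the RefSeq start of each of these genes (GRCm38.p6) are given here from 5′ to 3′ on the strand of the gene, with the C/EBP half-site GCAAT, on either strand, in capitals. C/EBP factors are transcription factors of the myeloid lineage.
Mmp8 (chr9:7558179-7558428, plus strand): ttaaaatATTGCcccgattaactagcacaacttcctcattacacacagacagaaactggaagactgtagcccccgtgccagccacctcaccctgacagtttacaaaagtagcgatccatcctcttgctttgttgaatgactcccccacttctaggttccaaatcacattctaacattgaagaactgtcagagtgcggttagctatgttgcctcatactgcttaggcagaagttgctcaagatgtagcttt
Lcn2 (chr2:32387740-32387989, minus strand): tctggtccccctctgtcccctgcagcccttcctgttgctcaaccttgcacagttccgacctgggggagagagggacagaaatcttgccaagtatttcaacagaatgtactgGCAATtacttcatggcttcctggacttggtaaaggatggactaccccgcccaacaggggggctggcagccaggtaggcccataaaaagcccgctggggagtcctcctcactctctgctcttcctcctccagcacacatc
S100a8 (chr3:90668821-90669070, plus strand): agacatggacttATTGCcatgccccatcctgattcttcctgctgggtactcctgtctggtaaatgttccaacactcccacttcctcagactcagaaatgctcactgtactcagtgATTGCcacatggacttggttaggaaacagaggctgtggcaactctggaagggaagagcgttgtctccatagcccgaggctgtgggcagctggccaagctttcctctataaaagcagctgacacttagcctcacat
S100a9 (chr3:90695722-90695971, minus strand): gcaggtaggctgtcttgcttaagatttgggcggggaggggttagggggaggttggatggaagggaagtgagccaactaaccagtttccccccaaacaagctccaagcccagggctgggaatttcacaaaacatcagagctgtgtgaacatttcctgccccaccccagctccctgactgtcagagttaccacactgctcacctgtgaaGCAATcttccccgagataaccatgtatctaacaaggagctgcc
The promoter table held 8 of the 10 genes, without Mmp9 and Wfdc21, and GCAAT was present in 8 of these 8 windows and in 23.1% of all 32851 windows of the same length. None of the 8 windows held the palindromic glucocorticoid response element, present in 0.00913% of windows, or its half-site AGAACA, present in 16.1%. None held the C/EBP palindrome TTGCGCAA (0.164% of windows), the STAT motif TTCNNNGAA (7.02%) or an NF-kB motif (1.01%). The half-site GCAAT and the NF-kB motif were searched after the other letters had given no match. A match to letters is not a site, and no match covers only these windows. In the GENCODE annotation of GRCm38, Mmp8 lies at chr9:7558456-7568485, Lcn2 at chr2:32384633-32388252, S100a8 at chr3:90668978-90670035 and S100a9 at chr3:90692632-90695721, so that both S100 genes are neighbors. The RefSeq starts of Lcn2 and S100a8 differ from the GENCODE ones, and their windows lie wholly or partly inside the GENCODE spans. All 10 genes are annotated as protein coding.

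The table held 4108 cells, 3803 of them control and 305 GC. Per the paper's methods and the labels, far fewer live cells were loaded into the GC channel than into the control channel. Cell counts therefore do not compare abundance between the groups. Neutrophils numbered 162 in control and 44 in GC tumors, monocytes 449 and 21, tumor-associated macrophages (TAMs) 723 and 43, and eosinophils 478 and 32. Median depth was 4220 and 5882 UMIs (unique molecular identifiers, one for each RNA molecule captured) per cell in control and GC neutrophils, 12880 and 17860 in TAMs, and 874 and 721 in eosinophils. Levels are mean UMIs of a gene per 10000 UMIs of a cell, averaged over the cells of one tumor, and changes are on the log2(level + 0.1) scale, which understates those of low genes. A class was compared in tumors with at least 10 of its cells. All 5 control tumors passed in each class, whereas 2 GC tumors passed for neutrophils and TAMs and 1 for monocytes and eosinophils. No cell barcode was shared between the channels. Summed over each list of defining markers, control tumors had 136 to 172 UMIs per 10000 of neutrophil markers in neutrophils and at most 70.0 in the other 3 classes, 55.8 to 68.3 of monocyte markers in monocytes and at most 32.7 elsewhere, 48.9 to 69.0 of TAM markers in TAMs and at most 26.7, and 18.4 to 24.6 of eosinophil markers in eosinophils and at most 0.387, with Epx at 0. The 70.0 was in eosinophils, where the neutrophil marker G0s2 was pooled at 49.4 UMIs per 10000 in control cells, beside 23.2 in control neutrophils.

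In control tumors, 9 of the 10 genes had UMIs in neutrophils. The authors clustered the same cells to define the classes, so levels between classes are a description. S100a9 had the highest level of the 10 in control neutrophils, at 204 ± 48.9 UMIs per 10000 (SD, n = 5 tumors), with a range of 142 to 273. S100a8 followed at 184 ± 46.3, with a range of 131 to 236. The ranges of these S100 genes overlapped. Within tumors, S100a9 was above S100a8 in control tumors 2 to 5, and in tumor 1 they were at 225.4 and 225.9. This difference was not tested. UMIs from the 10 genes made up 4.67% of all UMIs in control neutrophils and 0.00242% in control CD8 T cells.

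Below the S100 pair stood Retnlg at 21.4 ± 6.36 UMIs per 10000, Mmp9 at 7.03 ± 1.87, Lcn2 at 4.82 ± 2.42, Wfdc21 at 3.76 ± 1.76 and Mmp8 at 1.83 ± 0.151 (SD, n = 5). Mmp9, Lcn2 and Wfdc21, a WAP domain protein, overlapped in their ranges. The remaining specific granule genes were scarce: Ngp was at 0.942 ± 1.21, Ltf at 0.363 ± 0.156, and Camp had no UMI in neutrophils of either group. Of 102 Ngp UMIs in control neutrophils, 53 lay in a single cell, so the Ngp level of a tumor can rest on one cell.

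**Figure D1:**
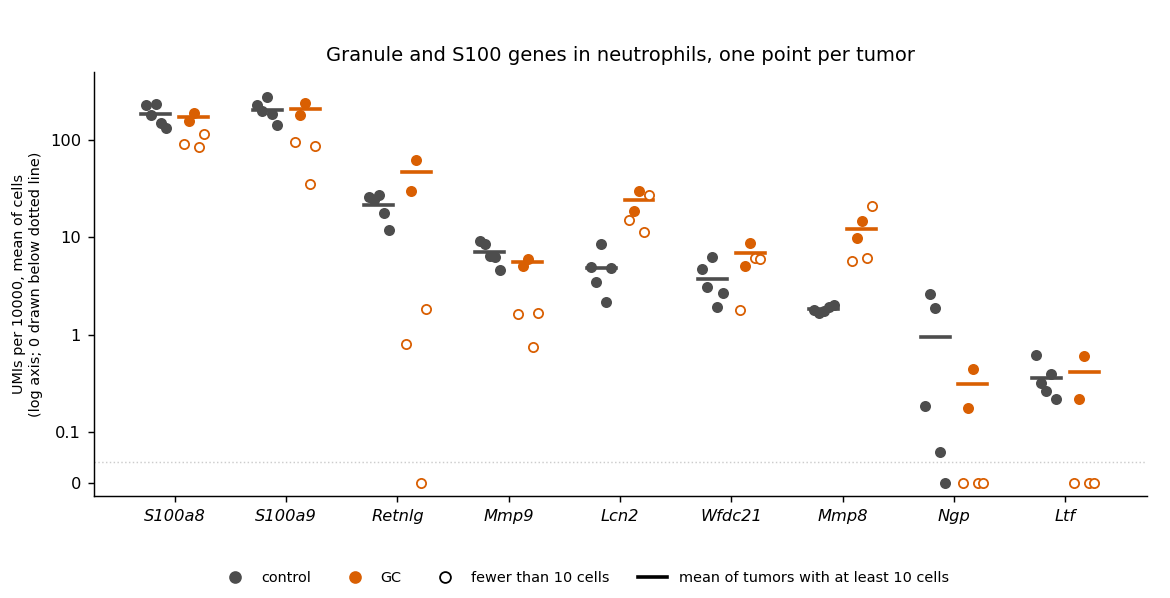
Levels of 9 of the genes in neutrophils as mean UMIs per 10000 on a log axis, with one point per tumor (control dark, GC orange, open points for tumors with fewer than 10 neutrophils) and bars at the mean of tumors with at least 10. Mmp8 in all 5 GC tumors, from 5.67 to 21.1, lies above all 5 control tumors, from 1.66 to 2.02, whereas S100a8 and S100a9 overlap.

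The first comparison asked whether GC treatment moved these genes within neutrophils. Mmp8 and Lcn2 rose, the S100 pair did not pass the test, and no gene of the 10 fell past the threshold. Of the 10 genes, 9 passed the filter on low levels, and 2 of these 9 were called higher by limma, beside 2.09% of the 4411 genes tested. EdgeR called the same 2, beside 2.63%. The median log2 change of the 9 was 0.10, beside 0.03 over all genes tested.

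Mmp8 was at 1.78, 1.66, 1.74, 1.95 and 2.02 UMIs per 10000 in control tumors 1 to 5, and at 9.87 and 14.6 in GC tumors 2 and 3. Control tumors were close to each other, and both GC tumors stood above all of them. The log2 change was 2.66 (SE 0.30, 95% interval 2.04 to 3.27, limma adjusted p = 1.82e-05). The GC tumors with fewer cells were also above the controls, at 5.67 (2 cells), 6.07 (2 cells) and 21.1 (7 cells).

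Lcn2 was at 4.98, 3.49, 8.65, 2.17 and 4.80 in the control tumors and at 18.6 and 29.9 in the GC tumors. The groups did not overlap, and the change was 2.41 (SE 0.40, 95% interval 1.55 to 3.27, limma adjusted p = 0.00348). Without GC tumor 3 it was 2.07 and not called (adjusted p = 0.0824). The smaller GC tumors were at 15.1, 11.4 and 27.5, above the highest control tumor.

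S100a8 was at 158 and 189 in the GC tumors, inside the control range, with a log2 change of -0.05 (95% interval -0.49 to 0.38, limma adjusted p = 0.921). S100a9 was at 181 and 239, also inside the control range, with a change of 0.06 (95% interval -0.37 to 0.49, adjusted p = 0.913). Neither interval reached the change of Mmp8 or Lcn2. In GC tumors with fewer than 10 neutrophils, S100a8 was at 90.3, 84.9 and 114.8 and S100a9 at 94.2, 35.2 and 85.7, below the lowest control tumor in both.

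Retnlg was at 26, 24.1, 27.0, 17.9 and 11.9 in control tumors and at 30.1 and 62.7 in the GC tumors. Both GC tumors were above the controls, but the change of 1.08 did not pass (SE 0.33, limma adjusted p = 0.0865). The smaller GC tumors were at 0.811, 0 and 1.86, below every control tumor, and with the tumor of 7 cells included the change was -0.41. Without GC tumor 2 it was 1.61 and called (adjusted p = 0.0338). Retnlg therefore had no stable direction in neutrophils.

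Wfdc21 was at 1.93 to 6.29 in control tumors and at 5.09 and 8.79 in GC tumors, with a change of 0.94 that did not pass (SE 0.38, limma adjusted p = 0.186). Mmp9 was at 4.61 to 9.22 in control tumors and at 5.09 and 6.03 in GC tumors, and its change was -0.30 (95% interval -0.87 to 0.28). The smaller GC tumors were at 1.62, 0.758 and 1.69, below every control tumor, and with the tumor of 7 cells included the change was -0.85 and not called (adjusted p = 0.213). Ngp (95% interval -2.77 to 2.18) and Ltf (95% interval -1.12 to 1.31) were too scarce for a firm value. The interval of the gelatinase Mmp9 lay below that of the collagenase Mmp8, and the difference between these genes was not tested.

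Shares of cells with a UMI were also compared at equal depth. With each cell thinned to 1000 UMIs, 16.9% of control neutrophils (26 of 154 cells, exact 95% interval 11.3 to 23.8) and 52.3% of GC neutrophils (23 of 44, 36.7 to 67.5) held an Mmp8 UMI. Without thinning these were 37.7% and 79.5%. For Lcn2 the thinned shares were 24.0% (37 of 154) and 75.0% (33 of 44, 59.7 to 86.8), and the unthinned shares 40.7% and 95.5%. Shares with an S100a9 UMI were 93.5% and 90.9%. In CD8 T cells, which should lack these genes, 0 of 878 control cells (which allows up to 0.342%) and 0 of 106 GC cells (up to 2.83%) held an Mmp8 or an Lcn2 UMI at this depth. Intervals on shares and pooled counts cover counting error only.

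The next comparison asked whether the same genes moved in macrophages of the same tumors. In TAMs, Mmp8, Lcn2 and S100a8 were higher after GC. Only these 3 of the 10 genes passed the filter, and all of them did so through their GC level. Limma called 3 of 3 higher, beside 6.86% of the 5988 genes tested in TAMs, and edgeR, a test on UMI sums, called the same 3 higher beside 6.93%. Because the filter let through only genes with a GC level, that count is a description. Of the genes below the filter, Mmp9 had 106 pooled UMIs in control TAMs, in 25 of 723 cells, and 0 in GC TAMs (fold up to 0.431 by counting). Wfdc21 had 3 and 8 UMIs, a 32.4-fold difference per UMI (counting interval 7.79 to 190). For S100a9, Retnlg and Ltf the counting intervals included no change.

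Mmp8 was at 0.0431, 0.172, 0.0513, 0.0122 and 0.0424 UMIs per 10000 in TAMs of control tumors 1 to 5, and at 5.11 and 5.39 in GC tumors 2 and 3. Both GC tumors lay far above every control tumor, and the log2 change was 5.09 (SE 0.29, limma adjusted p = 6.17e-06). The GC tumors with 3 and 7 TAMs were at 14.1 and 6.84. Pooled over cells, 440 Mmp8 UMIs in 43 GC TAMs compared with 65 in 723 control TAMs, an 82.4-fold difference per UMI (counting interval 63.4 to 108.6).

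Lcn2 was at 0 in 4 of 5 control tumors and at 0.00262 in the other, against 1.04 and 0.584 in GC tumors 2 and 3. The log2 change was 3.13 (SE 0.28, limma adjusted p = 8.19e-05), a value that depends on the 0.1 added. Pooled counts were 1 UMI in control and 83 in GC TAMs, a ratio of 1010 with a counting interval of 176 to 40360.

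S100a8 was at 0.136, 0.127, 0.0308, 0.0690 and 0.0774 in control TAMs and at 0.517 and 1.83 in the GC tumors, a change of 2.57 (SE 0.39, limma adjusted p = 0.00191). The groups did not overlap. The GC tumor with 7 TAMs was at 0.0558, inside the control range, and with it the change was 1.63 and not called (adjusted p = 0.10). S100a9, its usual partner, was at 0.0432 to 0.0931 in control TAMs and at 0 in both GC tumors, and it was below the filter. Without GC tumor 2 the filter left no value for Lcn2, and without GC tumor 3 none for Lcn2 or S100a8, whereas Mmp8 remained called (5.13 and 5.06).

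**Figure D2:**
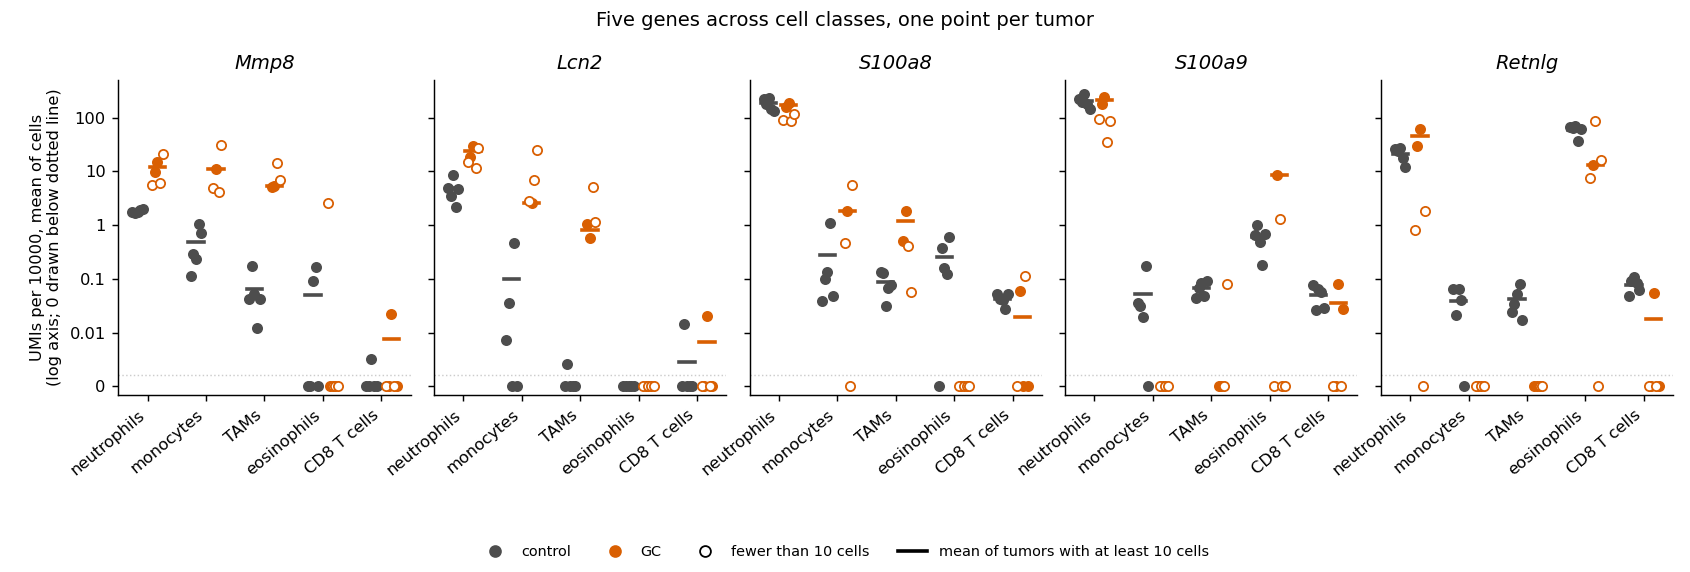
Levels of Mmp8, Lcn2, S100a8, S100a9 and Retnlg in 5 cell classes as mean UMIs per 10000 on a log axis, with one point per tumor and open points for tumors with fewer than 10 cells of the class. Mmp8 and Lcn2 are higher in GC tumors in neutrophils, monocytes and TAMs, while S100a9 stays at or below 0.173 UMIs per 10000 in monocytes and TAMs, and Retnlg is abundant in neutrophils and eosinophils.

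The proportions of the genes within TAMs differed from those within neutrophils. In GC neutrophils there were 7.35 Mmp8, 13.9 Lcn2, 93.8 S100a8 and 18.6 Retnlg UMIs for each 100 S100a9 UMIs. GC TAMs held 440 Mmp8, 83 Lcn2 and 77 S100a8 UMIs with 1 S100a9 UMI and no Retnlg UMI. Of the 32 GC TAMs with an Mmp8 UMI, 1 held an S100a9 UMI and 0 held a Retnlg UMI, whereas 34 of 35 such GC neutrophils held S100a9. Pooled S100a9 in control TAMs was 0.0515 UMIs per 10000 (Poisson interval 0.0379 to 0.0682), beside 0.0490 (0.0331 to 0.070) in control CD8 T cells.

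The Mmp8 UMIs of GC TAMs were spread over cells and tumors. At 1000 UMIs per cell, 14 of 43 GC TAMs (32.6%, exact interval 19.1 to 48.5) and 4 of 722 control TAMs (0.554%, 0.151 to 1.41) held Mmp8, and without thinning 74.4% and 4.98%. The highest cell had 49 Mmp8 UMIs. Lcn2 was in 14 of 43 GC TAMs, and 13 of these also held Mmp8. S100a8 was in 11 of 43, all of them with Mmp8 and none with S100a9, and 40 of its 77 UMIs lay in one cell.

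**Figure D3:**
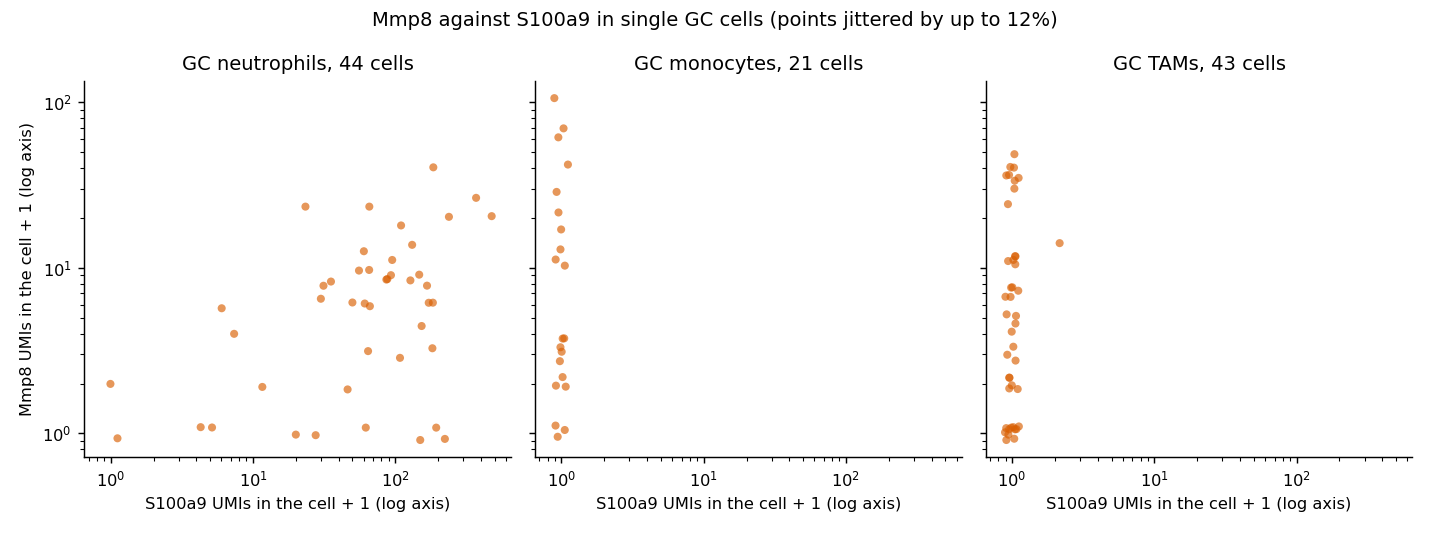
Mmp8 UMIs against S100a9 UMIs in single GC cells, both plus 1 on log axes and slightly jittered, in panels for 44 neutrophils, 21 monocytes and 43 TAMs. Neutrophils with Mmp8 hold S100a9 in 34 of 35 cells, while monocytes and TAMs with Mmp8 stand in the column without S100a9 except for 1 TAM.

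In monocytes, Mmp8 and Lcn2 were called higher by limma and Mmp8 alone by edgeR. The GC side was a single tumor with 10 cells, so that limma assumes that this tumor varies like the control tumors. Mmp8 was at 0.115, 0.291, 0.232, 1.07 and 0.727 in control tumors and at 11.0 in GC tumor 3, a change of 4.52 (SE 0.76, limma adjusted p = 0.00427, edgeR adjusted p = 0.0386). Lcn2 was at 0.00740, 0.0350, 0, 0.460 and 0 in control tumors and at 2.59 in the GC tumor, a change of 4.15 called by limma (adjusted p = 0.00931) and not by edgeR (adjusted p = 0.282). S100a8 was at 0.0380 to 1.10 and at 1.86, a change of 2.93 that missed the threshold (limma adjusted p = 0.0583) and passed it without control tumor 4 (3.48, adjusted p = 0.00396). S100a9, Retnlg and Mmp9 had no UMI in the 21 GC monocytes, which allows up to 3 UMIs of 330561. Limma thus called 2 of the 3 genes that passed the filter higher, beside 5.7% of 5771 genes, and edgeR called 1 beside 2.76%. Lcn2 passed the filter through its GC level, so that count too is a description.

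The other GC tumors with monocytes were also above every control tumor in Mmp8, at 4.83 (8 cells), 4.16 (1 cell) and 31.1 (2 cells). The control tumor with the highest Mmp8, tumor 4, also had the highest Lcn2 and S100a8 of the control tumors. Of the 3 monocyte clusters, Monocytes 1 supplied 372 of the 377 GC Mmp8 UMIs, in 16 of its 18 GC cells, none of which held S100a9. In control tumors the pooled level was 0.301 UMIs per 10000 in Monocytes 1 (interval 0.249 to 0.362), 0.936 in Monocytes 2 (0.785 to 1.11) and 0.0346 in Monocytes 3 (0.000876 to 0.193).

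The size of the change was then compared between classes in one limma model with the tumor as a block. The log2 change in TAMs exceeded that in neutrophils by 2.44 for Mmp8 (SE 0.43, adjusted p = 0.010) and by 2.62 for S100a8 (SE 0.48, adjusted p = 0.0110), 2 of 9 genes tested, beside 2.09% of 6513 genes. The differences were 0.73 for Lcn2 (SE 0.55, adjusted p = 0.560) and -1.56 for Retnlg (SE 0.47, adjusted p = 0.0952). With 1 in place of 0.1 added before the log, the differences were 0.35 for Mmp8 and 0.98 for S100a8, and neither was called. In absolute level the GC neutrophils remained higher, at 12.3 ± 3.38 UMIs per 10000 of Mmp8 beside 5.25 ± 0.193 in GC TAMs (SD, n = 2 each).

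**Figure D4:**
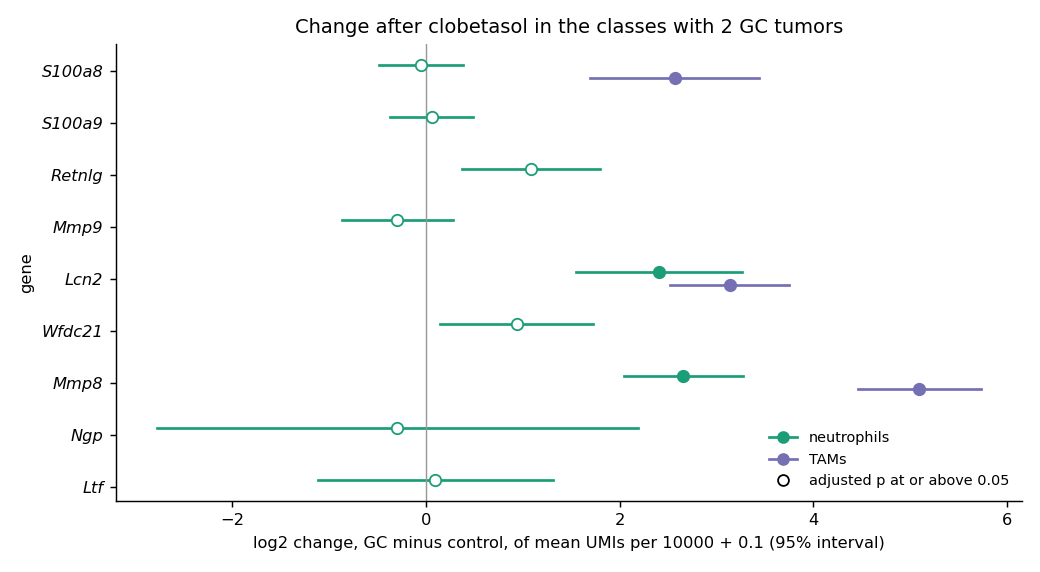
Log2 change after clobetasol of the genes that passed the filter in neutrophils and TAMs, with 95% intervals from limma and open points where the adjusted p was 0.05 or higher. Mmp8 and Lcn2 are called in both classes, and S100a8 is called in TAMs, at 2.57, but not in neutrophils, at -0.05.

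Eosinophils differed from the other classes, since Retnlg was abundant there and the rest of the set was nearly absent. Retnlg was at 67.7, 62.9, 71.0, 37.1 and 61.1 UMIs per 10000 in control eosinophils, above all 5 control neutrophil levels, of which the highest was 27.0. S100a9 was at 0.60 ± 0.297 (SD, n = 5), Mmp9 at 0.930 ± 0.432, and Lcn2, Wfdc21, Ngp and Camp had no UMI in 478 cells. For each 100 S100a9 UMIs, control eosinophils held 13420 Retnlg UMIs and control neutrophils 10.9. After thinning to 1000 UMIs, 80.4% of 163 control eosinophils (exact interval 73.4 to 86.2) and 48.1% of 154 control neutrophils (39.9 to 56.2) held Retnlg, beside 0.797% of control CD8 T cells.

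After GC, the one tumor with 10 eosinophils had Retnlg at 13.3, a change of -2.13 (SE 0.26, limma adjusted p = 1.71e-05), Mmp9 at 0 (-3.26, adjusted p = 0.00228) and S100a9 at 8.43 (3.74, adjusted p = 0.000579). Limma called 1 of 4 genes higher and 2 of 4 lower, beside 15.6% and 27.1% of 5342 genes in this class, and the median change over all genes was -0.87. EdgeR called Retnlg lower and neither of the others. With the GC tumors of 8 and 9 eosinophils included, none of these was called: Retnlg changed by -1.13, Mmp9 by -2.23 and S100a9 by 0.72. GC tumor 3, with 9 eosinophils, had Retnlg at 85.7, above every control tumor, and 37 of the 88 Retnlg UMIs of GC eosinophils lay in one cell. Of 7 S100a9 UMIs in GC eosinophils, 6 lay in 2 cells. In the limma model with both classes the change differed between eosinophils and neutrophils for 5 of 9 genes, beside 25.4% of 6007 genes. Lcn2 had no UMI in eosinophils of either group and Mmp8 had 2 and 1, so for these genes the difference restates the neutrophil change. The class name also held less well in GC cells: the summed eosinophil markers were at 11.2 UMIs per 10000 pooled, beside 21.4 in control cells, and those of mast cells and basophils at 24.7, beside 0.0658. The part of these cells in the eosinophil values was not tested.

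**Figure D5:**
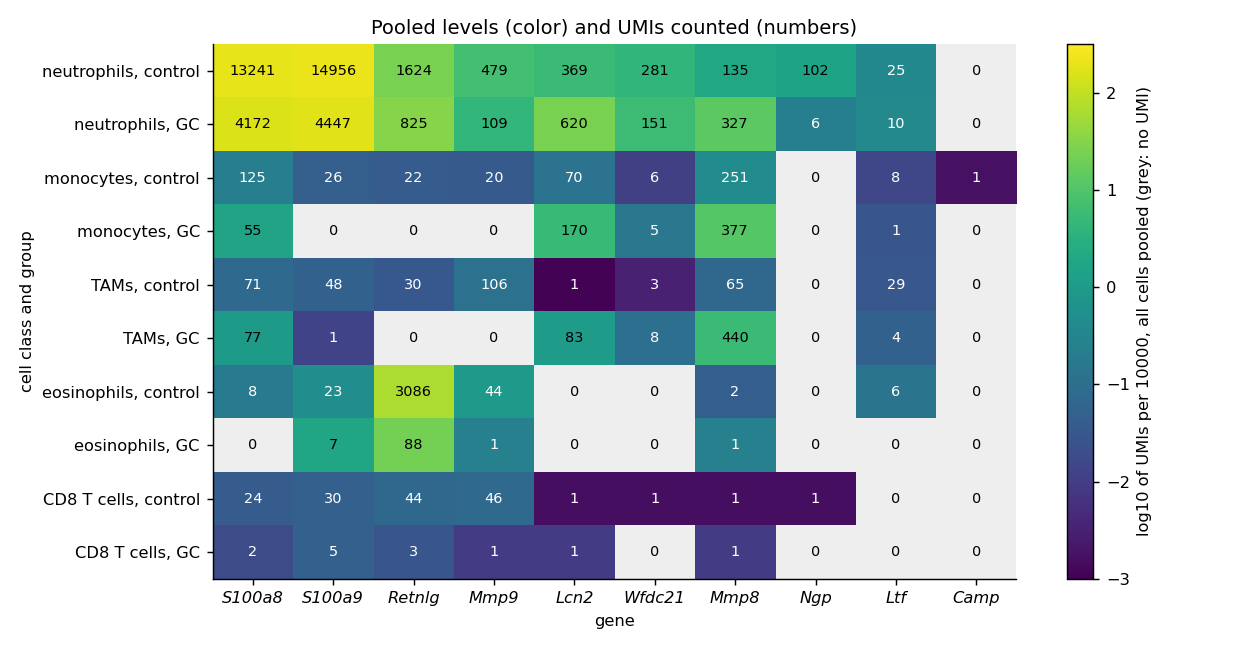
Pooled level of each of the 10 genes in 5 cell classes of control and GC tumors, as the log10 of UMIs per 10000 (color, grey where there was no UMI), with the number of UMIs counted printed in each field. In GC TAMs and monocytes Mmp8 (440 and 377 UMIs) and Lcn2 (83 and 170) stand beside 1 and 0 UMIs of S100a9.

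Related genes were read from lists chosen with earlier results known. Of 9 azurophil granule genes, 2 were tested in neutrophils and in TAMs and none was called. Mpo and the primary granule proteases such as Elane were below the filter. Among 19 further specific, gelatinase and secretory vesicle genes, 1 of 15 tested was higher in neutrophils and 3 of 10 in TAMs. Over all genes tested, 2.09% and 6.86% were called higher in these classes. The median changes of the list were 0.22 and 0.16. Cd33, a sialic acid-binding receptor, had a change of 1.06 in neutrophils (limma adjusted p = 0.0162), 0.91 in TAMs (adjusted p = 0.00222) and 2.72 in monocytes, called by edgeR too. In the eosinophil tumor its change was 2.61, which limma called but edgeR did not (adjusted p = 0.562). Adam8, a membrane protease, rose by 0.67 in TAMs and Hp, which encodes the hemoglobin-binding haptoglobin, by 0.95, the latter named after its value was seen. Cybb, the catalytic subunit of the phagocyte oxidase, was lower in the single GC tumor of monocytes (-2.0) and of eosinophils (-2.91), as were Adam8 (-5.18), Mmp25 (-4.37) and Slpi (-3.88) in eosinophils, of which edgeR did not call Slpi (adjusted p = 0.109).

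The list of 12 other S100 genes includes S100pbp, which encodes an S100P-binding protein and not an S100 protein. Of the 12, 5 were tested in neutrophils and none was called by limma. EdgeR, however, called S100a6 lower (limma change -0.99, edgeR adjusted p = 0.0495). Of 7 tested in TAMs, with S100pbp among them and not called, 3 were higher and 1 lower. Over all genes tested in TAMs these shares were 6.86% and 14.3%. The difference between the classes was not tested for these genes. S100a10, a partner of annexin A2, went from 2.62 to 5.74 UMIs per 10000 in TAMs (change 1.10, limma adjusted p = 0.00131) and S100a11 from 4.74 to 8.30 (0.80, adjusted p = 0.00112). S100a4 fell from 4.51 to 2.15 (-1.03, adjusted p = 0.000893), and S100a1, named after its value was seen, rose by 0.79. In monocytes, S100a10 (1.65) and S100a11 (1.47) were higher, as was S100a6 (1.20, named after its value was seen). In the single GC eosinophil tumor S100a10, S100a4, S100a13 and S100pbp had no UMI among 10 shallow cells. Limma called them lower, as it did 27.1% of all genes there, and edgeR called none of them (adjusted p from 0.122 to 0.467).

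Among 12 transcription factors of granule genes, 1 of 8 tested in neutrophils passed: Spi1, which encodes PU.1, was lower (-1.06, limma adjusted p = 0.0308). Over all genes tested in neutrophils, 2.74% were called lower. In TAMs 2 of 9 were higher, beside 6.86% of all genes tested there. These were Cebpa (0.96, limma adjusted p = 0.0213) and Cebpb (0.44, adjusted p = 0.00821, named after its value was seen), both C/EBP factors. In the single GC tumor of monocytes Fos was higher (1.17) and Cebpd (-1.76) and Spi1 (-0.64) lower, and in that of eosinophils Cebpd was higher (3.18) and Spi1 (-4.69) and Klf5 (-3.56) lower by limma. EdgeR did not call Cebpa in TAMs (adjusted p = 0.0590), Cebpd (0.179) or Spi1 (0.359) in monocytes, or Cebpd (0.660) or Klf5 (0.182) in eosinophils. Nr3c1, which encodes the glucocorticoid receptor, was not called in neutrophils or TAMs.

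Of the receptors that bind these proteins, 0 of 3 tested in neutrophils and 1 of 4 in TAMs passed, beside 4.83% and 21.2% of all genes tested. Cd14, a coreceptor of Toll-like receptor 4, rose by 0.58 in TAMs (limma adjusted p = 0.0112), beside 1.57 in monocytes. In neutrophils its change of 0.63 (95% interval 0.23 to 1.03) missed the threshold (limma adjusted p = 0.0662), although both GC tumors, at 25.8 and 39.1, lay above the control range of 18.3 to 23.2. Bsg (-4.84) and Cd14 (-2.90) were lower by limma in the eosinophil tumor, and of these edgeR called Bsg. Among metalloproteinases and their inhibitors, 6 were tested in TAMs, with 1 higher and 3 lower, beside 6.86% and 14.3% of all genes tested. Mmp12, the macrophage elastase, fell from 7.42 to 2.30 UMIs per 10000 (-1.66, adjusted p = 0.00220), Mmp13 by 1.70 on the log2 scale and Mmp14 by 0.81, while Mmp19 rose by 1.38. Thus Mmp8 and Mmp19 rose in TAMs while the collagenase Mmp13 and the membrane-bound Mmp14 fell, although edgeR did not call Mmp13 (adjusted p = 0.136). In monocytes Mmp13 was lower (-3.69) and Mmp19 higher (1.82), and in eosinophils Mmp12 was lower (-2.44) and Timp2 higher (2.26), each by limma from 1 GC tumor and none by edgeR (adjusted p from 0.106 to 0.769).

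Neutrophil receptors, by contrast, were not called in neutrophils (0 of 10, median -0.31). In TAMs 5 of 10 were called higher, beside 6.86% of all genes tested (median 0.55, beside -0.12 over all genes tested). Cxcr2, the receptor for neutrophil-attracting chemokines, went from 0.0408 to 0.783 UMIs per 10000 in TAMs (2.68, limma adjusted p = 0.000167) and was higher in monocytes (3.94). In TAMs Il1r2, the decoy receptor of interleukin 1, rose by 0.81, Ltb4r1 by 0.70, and Trem1 (named after its value was seen) by 1.08. Csf3r, the receptor of the granulocyte growth factor G-CSF, was pooled at 0.731 (interval 0.677 to 0.788) and 0.900 (0.700 to 1.14) in control and GC TAMs. In the eosinophil tumor Il1r2, Ltb4r1 and Csf2rb were lower by limma, and of these edgeR called Il1r2. Of 4 antimicrobial serpins and protease inhibitors tested in neutrophils, limma called 1 higher, beside 2.09% of all genes tested, and edgeR called 0. It was Cstdc4, a stefin-like gene whose reads may be shared with near-identical copies (1.85, limma adjusted p = 0.0471, edgeR adjusted p = 0.0526). In the eosinophil tumor Serpinb1a (4.63) was higher and Serpinb2 (-2.10) lower.

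Il1r2, Cxcr2 and Csf3r are also neutrophil markers, and members of that list differed in TAMs. The summed level of the 6 neutrophil markers was 13.9 to 17.2 UMIs per 10000 in control TAMs and 23.6 to 27.9 in GC TAMs. Of these markers, 3 of 5 tested were called higher, beside 6.86% of all genes tested in TAMs. Most of the rise in the sum was Il1r2, from 10.8 to 19.0, whereas Csf3r changed by 0.03 (limma adjusted p = 0.927) and Clec4d by 0.35 (adjusted p = 0.0621), neither called. G0s2, another marker of the list, had no UMI in GC TAMs or GC monocytes, which allows up to 0.0481 and 0.112 UMIs per 10000. Control TAMs and monocytes were at 0.0354 and 0.0380 pooled, below these limits, so this absence shows no difference. In neutrophils the same sum was 136 to 172 in control and 143 in both GC tumors, and G0s2 fell from 22.1 to 5.88 (-1.84, limma adjusted p = 0.00537). In monocytes it was 8.06 to 9.89 in control tumors and 37.4 in the GC tumor. In GC TAMs 7 of 7 TAM markers were detected, with a summed level of 55.3 to 76.8, beside 48.9 to 69.0 in control TAMs. The 6 monocyte markers summed to 20.6 to 32.7 in control TAMs and 42.8 to 58.9 in GC TAMs. Of these, 2 of 6 were called higher and 1 lower, beside 6.86% and 14.3% of all genes tested. Most of that rise was F13a1, which went from 6.26 to 28.3 (2.20, limma adjusted p = 0.000406). Vcan rose by 1.10 on the log2 scale (limma adjusted p = 0.00460). Ly6c2 (1.87, limma adjusted p = 0.158), Ms4a4c (0.46) and Plac8 (-0.13) were not called. Ccr2 fell by 0.33 on the log2 scale (limma adjusted p = 0.0471), and edgeR did not call it (adjusted p = 0.376). The part of these marker changes in the levels of Mmp8, Lcn2 and S100a8 was not tested.

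Across 59 tumor and class means of 12 classes, the genes whose log2 levels were most like S100a9 were Il1f9 (Pearson r = 0.946), Stfa2l1 (0.942) and Hdc (0.942). Those most like Mmp8 were Id1 (0.884), Hp (0.884) and Cxcr2 (0.873), and those most like Lcn2 were Cxcr2 (0.966), Lrg1 (0.946) and Stfa2l1 (0.897). These points share libraries and tumors and include the classes in which the genes are high, so the correlations are a description.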

How the data were processed

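Live CD45+ cells of 5 control and 5 GC tumors were profiled by hashtagged droplet RNA-seq. Per the labels and methods, the authors aligned reads with Cell Ranger (7.1.0) to mm10 with introns included, kept hashtag singlets within 3 MAD of quality measures, and clustered cells with Seurat (5.0.3), and their class names were used. No doublet caller was run here, and doublets within a tumor remain. The deposited values are natural log values, ln(1 + UMIs per 10000), and the deposited cell table gives total counts and percent mitochondrial reads per cell. Whole UMIs were recovered from 100% of 10330441 values within 0.01.

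Tumor means were tested with limma (3.58.1, R 4.3.3; trend, robust) on log2(mean + 0.1) in tumors with at least 10 cells and genes whose mean level reached 0.2, with Benjamini-Hochberg adjustment over all genes tested at 0.05. EdgeR (4.0.16) quasi-likelihood and DESeq2 (1.42.0) on UMI sums were alternatives. P-values measure only the spread between tumors. In monocytes and eosinophils, with 1 GC tumor, that is the spread between control tumors, and the GC tumor is assumed to vary like them. The procedure was tested on simulated tumor UMI sums with a fixed spread, which do not cover levels that rest on single cells. The 10 genes and the lists were chosen with earlier results of these data known. Of each list, up to 5 genes called by limma in at least 1 class were named by largest absolute change, and others are marked as named after their values were seen. The 3 genes most alike were taken by Pearson r over tumor and class means. One list gene that the rule names is not reported here.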

Additional observations from a re-analysis of the deposited data

Results flagged for a closer look

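Of 19 sets of tumor values tested for a single value far from the rest, 4 had one, where chance gives about 1 in 20. In control monocytes, replicate 4 stood apart in Lcn2 at 0.460 UMIs per 10000 and in S100a8 at 1.10. Over all control monocytes, a single cell held 40 of 70 Lcn2 UMIs and a single cell 73 of 125 S100a8 UMIs, so a tumor level can rest on single cells. In control TAMs, replicate 2 stood apart in Mmp8 at 0.172, and one tumor in Lcn2 at 0.00262, which is a single UMI.

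The change after GC differed between TAMs and neutrophils by 2.62 for S100a8 and 2.44 for Mmp8 on the log2 scale. Between eosinophils and neutrophils, from 1 GC eosinophil tumor, it differed by -2.41 for Lcn2, -2.96 for Mmp9, 3.68 for S100a9, -3.12 for Mmp8 and -3.21 for Retnlg, 5 of the 9 genes tested beside 25.4% of 6007 genes. Eosinophils held no Lcn2 UMI and 3 Mmp8 UMIs in all, so these values for Lcn2 and Mmp8 restate the neutrophil change, and Retnlg in eosinophils was not called with the tumors of 8 and 9 cells included.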

How the results depend on the processing

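In neutrophils, some changes near 0 turned direction: S100a9 was -0.12 with DESeq2, -0.13 with edgeR and -0.37 with tumors of at least 5 cells, a setting that also gave Ltf -0.65. Retnlg turned as well in that setting, from 1.08 in the main test, which is not near 0, to -0.41. Leaving out each replicate in turn gave -0.18 to 0.074 for S100a8, -0.14 to 0.26 for S100a9, -0.86 to 0.33 for Ngp and -0.49 to 0.68 for Ltf. The number of genes called in neutrophils was 2 and became 4 when log values were averaged over cells, and 1 to 3 when leaving out each replicate. In monocytes it was 2 and became 1 with DESeq2, edgeR or a mean of at least 1, and 2 to 3 when leaving out each replicate. In TAMs it was 3 and became 1 with a mean of at least 1, 5 with no filter, and 1 to 3 when leaving out each replicate, with 1 without GC replicate 3. In eosinophils it was 3 and became 1 with DESeq2 or edgeR and 0 with at least 5 cells. The 2 differences between TAMs and neutrophils became 0 with a pseudocount of 1. Mmp8 was called when leaving out each replicate in neutrophils (2.37 to 2.94) and TAMs (4.97 to 5.29). Leaving out cells with an S100a9 or Retnlg UMI, added after the data were seen, removed 1 GC TAM and no GC monocyte, so it hardly touched the GC side. The cause of these shifts was not tested.

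No paired analysis was possible because hashtag numbers only name tumors, and the groups were run in separate channels. A minimum of 20 cells left no GC tumor, leaving out the lone GC tumor of monocytes or eosinophils was not possible, and leaving out cells with 3 neutrophil marker UMIs was fitted in eosinophils alone, since fewer than 10 cells per GC tumor remained elsewhere. The small number of GC cells limits every GC value, and treatment and channel cannot be told apart.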
